A study of Mus musculus with 8 samples.

Results

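The genes St3gal1 to St3gal6 encode the Golgi enzymes that attach sialic acid to terminal galactose in alpha-2,3 linkage, and they were followed in poly(A) RNA of the hippocampus from T29-1 Cre mice and wild-type (WT) mice. The 6 genes were taken by name from a count table of 46078 rows, and all 6 passed the filter on low counts that left 15996 tested genes. The T29-1 Cre mice were hemizygous (Cre+/-) for Tg(Camk2a-cre)T29-1Stl, a transgene that expresses Cre recombinase from the Camk2a promoter, which is active in excitatory forebrain neurons. The WT mice lacked it, and no floxed target is named for either genotype. Each genotype had 4 libraries, from C57BL/6J mice aged 9 weeks. The labels name no other allele or treatment, and they do not say whether the replicates are separate animals, so the p-values measure the spread between these libraries, which may be technical.

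Sialic acid closes many of the sugar chains that neurons carry on glycoproteins and on gangliosides, the sialylated glycolipids of the neuronal membrane. An alpha-2,3 enzyme and an alpha-2,6 enzyme can act on the same galactose end, and each capping leaves a different ligand for lectins. Within the alpha-2,3 family, St3gal5 is the GM3 synthase that starts ganglioside synthesis. St3gal2 caps galactose on complex gangliosides such as GD1a and GT1b, which mouse brain also makes with the help of St3gal3. St3gal1 acts chiefly on the short O-glycans of glycoproteins, and St3gal3, St3gal4 and St3gal6 act on galactose ends of N-glycans and other N-acetyllactosamine chains.

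The count table is at the gene level, so the promoter windows are shown only as context for where these transcripts start. Of the 6 genes, 4 matched by symbol to RefSeq promoter windows (GRCm38.p6), and St3gal1 and St3gal2 did not. The following lines give the 250 bases before the start of St3gal5, St3gal3 and St3gal6, which ranked at the top, in the middle and at the bottom of the family by level per exon length. Capitals mark each GC box (GGGCGG) and each CCAAT box (CCAAT) on either strand, so that CCGCCC and ATTGG are matches on the other strand. A search for the TATA box (TATAAA) on both strands found 0 matches in these 3 windows.
St3gal5, chr6:72097358-72097607, plus strand: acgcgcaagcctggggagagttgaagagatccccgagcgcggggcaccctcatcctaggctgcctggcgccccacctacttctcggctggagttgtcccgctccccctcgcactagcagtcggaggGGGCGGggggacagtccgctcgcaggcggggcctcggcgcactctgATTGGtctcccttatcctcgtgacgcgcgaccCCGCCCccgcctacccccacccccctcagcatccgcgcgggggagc
St3gal3, chr4:118134947-118135196, minus strand: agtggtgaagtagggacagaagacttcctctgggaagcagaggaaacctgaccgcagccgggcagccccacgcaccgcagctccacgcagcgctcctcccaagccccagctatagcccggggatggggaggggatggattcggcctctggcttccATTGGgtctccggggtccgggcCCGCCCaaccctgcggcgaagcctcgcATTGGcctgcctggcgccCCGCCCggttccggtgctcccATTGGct
St3gal6, first of 2 starts, chr16:58524254-58524503, minus strand: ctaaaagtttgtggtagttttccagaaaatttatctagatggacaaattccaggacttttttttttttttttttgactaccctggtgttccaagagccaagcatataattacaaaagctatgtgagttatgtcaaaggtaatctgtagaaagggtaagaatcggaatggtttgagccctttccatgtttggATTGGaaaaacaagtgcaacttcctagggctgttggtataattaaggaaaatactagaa

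The windows differed in base composition. The St3gal5 window had a GC content of 71.6% and 25 CpG dinucleotides, and the St3gal3 window had 68.4% and 18. The first St3gal6 window had 34.8% and 1 CpG, against a median of 52.4% and 6 over 32841 windows of the same length. Its other start, chr16:58523427-58523676 on the minus strand, had a GC content of 64.4% and 16 CpG. St3gal4, chr9:35116865-35117114 on the minus strand, had 72.8% and 25. GC boxes numbered 2 in the St3gal5 window, 2 in that of St3gal3, 3 in that of St3gal4, and 0 and 4 at the first and second St3gal6 starts, and 32.7% of all windows held at least 1. CCAAT boxes numbered 1 at St3gal5, 3 at St3gal3, 0 at St3gal4, and 1 and 0 at the St3gal6 starts, and 33.9% of all windows held at least 1. TATA boxes numbered 0 in all 5 windows of the family and occurred in 12.4% of all windows. The counts do not separate the 2 starts of St3gal6.

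For none of the 6 genes did a difference between T29-1 Cre and WT hippocampus pass the test. edgeR's quasi-likelihood test with Benjamini-Hochberg adjustment over all tested genes called 0 of 6 at an adjusted p under 0.05, where it called 1 of 15996 genes (0.00625%). That gene was the alpha-2,6 enzyme St6gal2. At an unadjusted p under 0.05 there were again 0 of 6 (2.43% of all tested genes), and the libraries of the genotypes were fully apart for 0 of 6 (1.81% of all tested genes). DESeq2 and limma-voom also called 0 of the 6, with 0 at an unadjusted p under 0.05. Higher values in T29-1 Cre were found for 2 of the 6 and lower values for 4, with a median log2 fold change of -0.01, and over all tested genes 49.7% had a higher value. Levels are given as CPM, the counts scaled to a common library size, with library sizes scaled by the trimmed mean of M values (TMM). In bulk tissue fewer cells of a type and less RNA per cell cannot be told apart.

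The ganglioside enzymes were measured most tightly. St3gal5 (ENSMUSG00000056091.12, chromosome 6, 72097592 to 72154571, plus strand, GRCm38) was at 108, 112, 108 and 113 CPM in T29-1 Cre replicates 1 to 4, against 116, 110.4, 109 and 112 CPM in WT replicates 1 to 4. The ranges of the genotypes overlapped, with WT replicate 1 above every T29-1 Cre library. Its mean was 111 ± 2.64 CPM in T29-1 Cre and 112 ± 3.11 CPM in WT (SD, n = 4 each). On the log2 scale the difference was -0.01 (SE 0.0447, edgeR adjusted p = 0.998). Its fold change had a 95% interval of 0.926 to 1.06.

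St3gal2 (ENSMUSG00000031749.12, chromosome 8, 110919922 to 110972480, plus strand) had the most counts of the family, 3814 to 4967 per library. It was at 159.8, 167, 151 and 169 CPM in the T29-1 Cre libraries and at 162, 166, 162 and 159 CPM in the WT libraries. The highest and the lowest of the 8 values were both in T29-1 Cre, in replicates 4 and 3, and the WT libraries lay between them. The means were 162 ± 8.12 CPM in T29-1 Cre and 162 ± 2.74 CPM in WT (SD, n = 4 each), and the fold change was 0.996 with a 95% interval of 0.928 to 1.07 (edgeR adjusted p = 0.998).

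St3gal1 (ENSMUSG00000013846.10, chromosome 15, 67102875 to 67176830, minus strand), the O-glycan enzyme, varied most between libraries relative to its level. It was at 30.6, 27.7, 36.8 and 26.02 CPM in T29-1 Cre, against 27.3, 27.2, 33.0 and 29.5 CPM in WT. Replicate 3 was the highest library in each genotype, and T29-1 Cre replicate 4 was the lowest of all. Its mean was 30.3 ± 4.73 CPM in T29-1 Cre and 29.3 ± 2.72 CPM in WT (SD, n = 4 each). The log2 fold change was 0.05 (SE 0.0983, 95% interval -0.16 to 0.26, edgeR adjusted p = 0.998). Without T29-1 Cre replicate 3 the value was -0.06, so that the sign rested on that library.

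Among the N-glycan enzymes, St3gal3 (ENSMUSG00000028538.12, chromosome 4, 117932154 to 118134914, minus strand) had the highest level. It was at 46.2, 40.9, 40.8 and 45.9 CPM in T29-1 Cre and at 45.3, 44.5, 41.5 and 49.6 CPM in WT. The T29-1 Cre values fell into an upper and a lower pair, both within or near the WT range. The means were 43.4 ± 3.005 CPM in T29-1 Cre and 45.2 ± 3.37 CPM in WT (SD, n = 4 each), and their log2 ratio was -0.06 (SE 0.0658, edgeR adjusted p = 0.998). The highest value was in WT replicate 4, a library that stood apart from the other 7 on the first principal component, and without it the log2 fold change was -0.01.

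St3gal4 (ENSMUSG00000032038.7, chromosome 9, 35046576 to 35119268, minus strand) is one of the enzymes that make selectin ligands on mouse leukocytes. It was at 15.45, 15.01, 14.98 and 15.30 CPM in T29-1 Cre and at 16.1, 14.8, 14.4 and 15.8 CPM in WT. All 4 T29-1 Cre values lay inside the WT range. The means were 15.2 ± 0.227 CPM in T29-1 Cre and 15.3 ± 0.814 CPM in WT (SD, n = 4 each), and the fold change was 0.996 with a 95% interval of 0.903 to 1.10 (edgeR adjusted p = 0.998). Its exons share 412 bases with 4930581F22Rik on the opposite strand, or 14.1% of its exon length, and that gene was at 3.38 CPM in T29-1 Cre and 3.03 CPM in WT.

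St3gal6 (ENSMUSG00000022747.17, chromosome 16, 58468125 to 58524243, minus strand), which also caps N-acetyllactosamine chains, was the lowest and had the largest fold change of the family. It was at 9.67, 8.08, 9.17 and 7.42 CPM in T29-1 Cre and at 7.82, 7.62, 7.08 and 8.73 CPM in WT. The genotypes overlapped, since T29-1 Cre replicate 4 lay below 3 of the 4 WT libraries. The means were 8.59 ± 1.02 CPM in T29-1 Cre and 7.81 ± 0.687 CPM in WT (SD, n = 4 each), and the log2 ratio was 0.14 (SE 0.105, edgeR adjusted p = 0.998). The fold interval, 0.942 to 1.29, was the widest of the 6 and rests on 188 to 256 counts per library. Its exons share 1603 bases (26% of their length) with Dcbld2 on the opposite strand. Dcbld2 was at 24.1 ± 0.637 CPM in T29-1 Cre and 21.9 ± 2.42 CPM in WT (SD, n = 4 each), and its log2 ratio was 0.13 (SE 0.0761). Its lowest library was WT replicate 4 (18.3 CPM, against 22.5 to 23.5 CPM in the other WT libraries), where St3gal6 had its highest WT value. In T29-1 Cre both genes were highest in replicate 1. The part of shared reads in the St3gal6 values was not tested. Reads of such overlaps are uncertain where counting ignored strand, and the strand setting is not given in the sources used here.

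**Figure D1:**
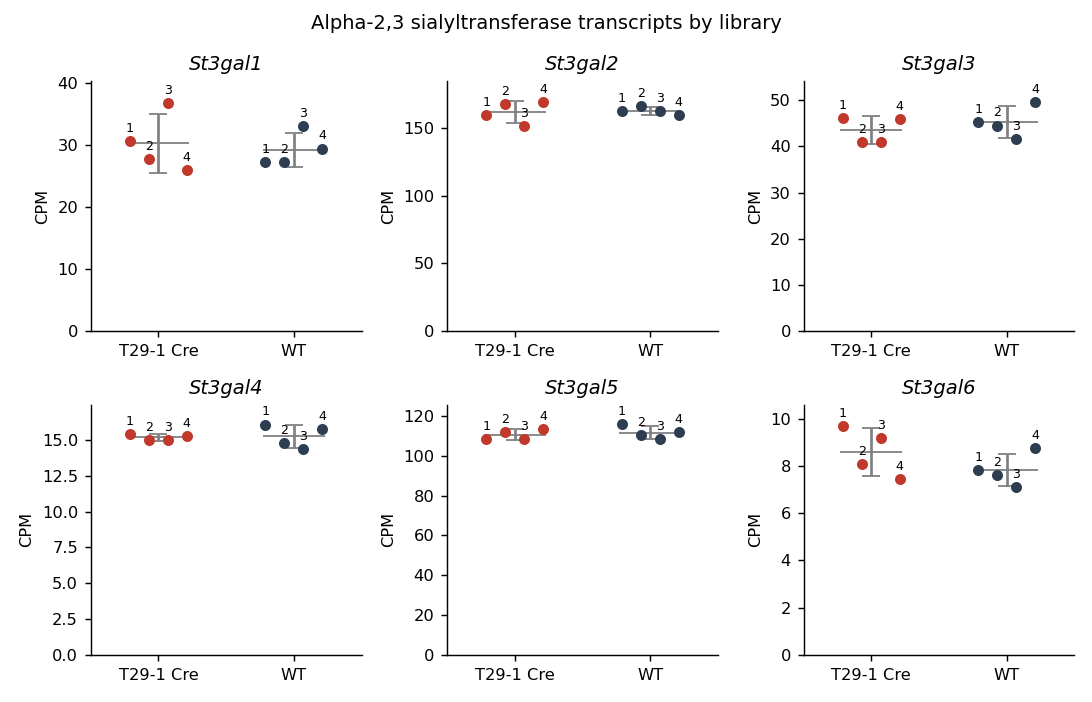
TMM-scaled CPM of each St3gal gene in the T29-1 Cre (red) and WT (dark) libraries, each on its own axis from 0. Points are libraries with their replicate numbers and bars are the mean ± SD. The genotypes overlap for all 6 genes, with the widest spread relative to the mean for St3gal1 (26.02 to 36.8 CPM in T29-1 Cre).

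Single-gene permutation tests also placed none of the members beyond the spread. When the 8 libraries were reassigned to the genotypes in all 70 ways, an exact two-sided permutation test on the log2 level gave p-values of 0.771 for St3gal1, 0.886 for St3gal2, 0.543 for St3gal3, 0.914 for St3gal4, 0.571 for St3gal5 and 0.257 for St3gal6, where the smallest it can give is 0.0286. In the authors' deposited table, which lists p-values without adjustment, the log2 fold changes of St3gal6 and St3gal3 were 0.14 and -0.06, with p = 0.217 and 0.438. The authors' deposited table lists the other 4 members at p-values of 0.635 to 0.947.

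The members can be ranked against each other only per exon length. With the CPM divided by the length of the merged exons of GENCODE M21, St3gal5 was the highest, at 42.2 ± 1.01 CPM per kb in T29-1 Cre and 42.6 ± 1.19 in WT. St3gal2 followed with 32.1 ± 1.61 CPM per kb in T29-1 Cre and 32.2 ± 0.544 in WT, and St3gal3 with 15.7 ± 1.09 in T29-1 Cre and 16.3 ± 1.22 in WT. The ganglioside enzymes thus led the family in both genotypes, with the broadly acting St3gal3 next.

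The remaining members lay far lower. St3gal4 was at 5.19 ± 0.0775 CPM per kb in T29-1 Cre and 5.22 ± 0.279 in WT, St3gal1 at 4.42 ± 0.69 in T29-1 Cre and 4.27 ± 0.397 in WT, and St3gal6 at 1.39 ± 0.165 in T29-1 Cre and 1.27 ± 0.111 in WT (SD, n = 4 each). Each neighbour in this order was compared within libraries as a geometric mean ratio over the 8 libraries. These ratios are a description with no p, since the same libraries set the order. St3gal5 exceeded St3gal2 1.32-fold, St3gal2 exceeded St3gal3 2.01-fold, St3gal3 exceeded St3gal4 3.07-fold and St3gal1 exceeded St3gal6 3.27-fold, each in 8 of 8 libraries. The step from St3gal4 to St3gal1 was the smallest, 1.21-fold and in 7 of 8 libraries. In T29-1 Cre replicate 3 this ratio was 0.955, so that St3gal1 stood above St3gal4 there.

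The lower end of the order depended on the length used. With the length of the longest transcript the order was the same. With the mean length of the coding transcripts St3gal6 (7.12 CPM per kb over the 8 libraries) stood above St3gal1 (6.84), and St3gal4 (22.01) came close to St3gal3 (26.6). St3gal4 has 9 annotated coding transcripts and St3gal6 has 10.

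**Figure D2:**
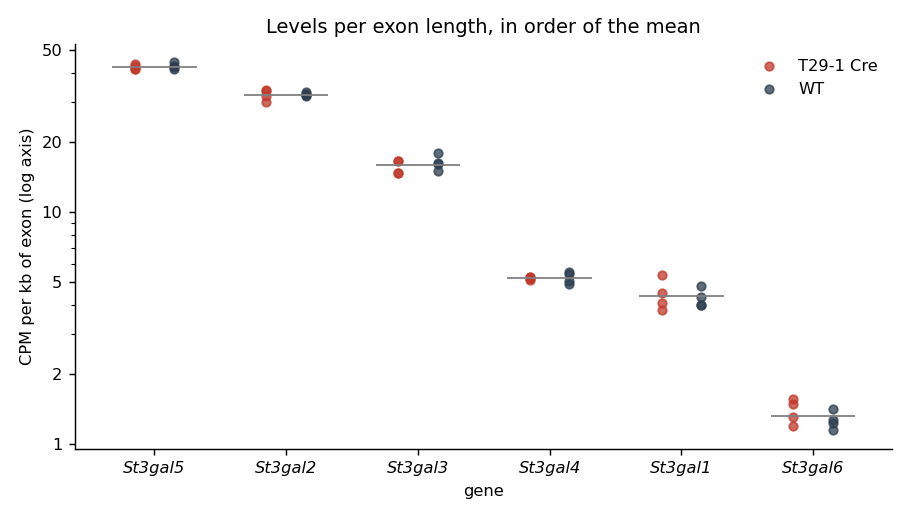
CPM per kb of merged exons on a log axis for the 6 genes in order of their mean, with T29-1 Cre libraries (red) left of WT libraries (dark) and a grey line at the mean of all 8. St3gal5, St3gal2 and St3gal3 lie well above the others, and the points of St3gal4 and St3gal1 overlap.

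Summed over the family, the alpha-2,3 transcripts overlapped between the genotypes. The summed level of the 6 genes was 101 ± 2.27 CPM per kb in T29-1 Cre and 102 ± 1.91 CPM per kb in WT (SD, n = 4 each), with 98.2 to 104 over all libraries. St3gal5 made up 41.8 ± 0.626% of that sum in T29-1 Cre and 41.8 ± 0.626% in WT (SD, n = 4 each). St3gal2 made up 31.8 ± 0.989% in T29-1 Cre and 31.6 ± 0.926% in WT, and St3gal6 1.38 ± 0.185% in T29-1 Cre and 1.24 ± 0.0912% in WT (SD, n = 4 each).

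The balance against the alpha-2,6 enzymes that act on galactose differed through St6gal2, the gene with the smallest p of these libraries, so the following values are a description. St6gal1 and St6gal2 together were at 13.4 ± 1.61 CPM per kb in T29-1 Cre and 6.77 ± 0.451 CPM per kb in WT (SD, n = 4 each). Their share of the summed level of all 8 galactose sialyltransferases was 11.7 ± 1.46% in T29-1 Cre and 6.23 ± 0.411% in WT. The 4 T29-1 Cre libraries, at 10.2% to 13.5%, all lay above the WT libraries, at 5.67% to 6.57%. With St6gal2 left out, the share of St6gal1 was 4.18 ± 0.168% in T29-1 Cre and 4.04 ± 0.257% in WT (SD, n = 4 each). Transcripts of alpha-2,3 enzymes thus made up most of this sum in both genotypes, chiefly those of St3gal5 and St3gal2. These genes are named above for gangliosides, and St3gal1 for O-glycans. The sum therefore covers different acceptors, and the share does not measure competition for the same galactose ends. The upper 95% limits of the fold changes of the 6 St3gal genes, 1.06 to 1.29, lay below the lower limit for St6gal2, 3.03.

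**Figure D3:**
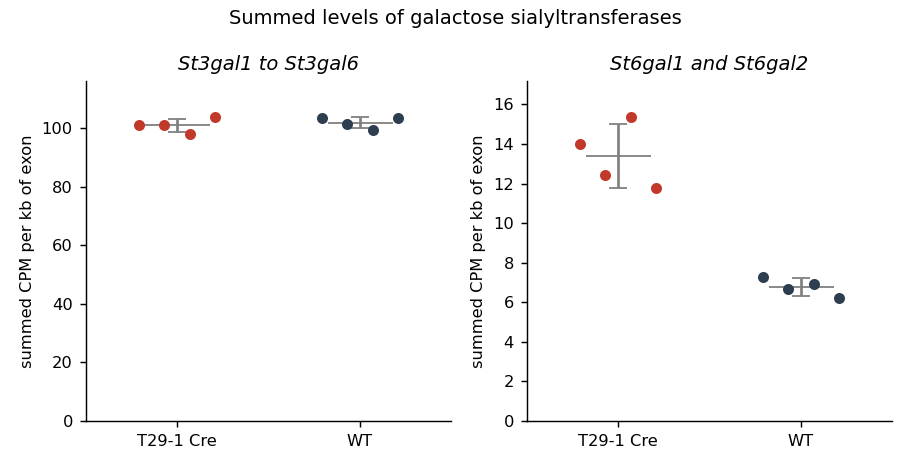
Summed CPM per kb of exon of the 6 alpha-2,3 genes (left) and of the alpha-2,6 genes St6gal1 and St6gal2 (right), with T29-1 Cre libraries left of WT libraries and bars for the mean ± SD. The alpha-2,3 sums overlap at 98.2 to 104, and the alpha-2,6 sums do not overlap.

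The spread between libraries of a genotype differed between the members. The SD of log2 CPM within genotypes was 0.177 for St3gal1, above that of 91.1% of the 11502 tested genes that averaged 5 CPM or more, whose median was 0.0935. Counting alone gives an SD of about 0.0522 at the depth of St3gal1. St3gal5 stood at the other end with 0.0371, and 3.48% of these genes had a lower SD. St3gal2 was at 0.0543, St3gal4 at 0.0549, St3gal3 at 0.102 and St3gal6 at 0.142. The value of St3gal4 was below the 0.0724 that counting alone gives on average, and that of St3gal6 was above its 0.099.

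Regional markers varied between the libraries too, and their orders matched that of St3gal1 in part. From high to low, St3gal1 ran through replicates 3, 1, 2 and 4 in T29-1 Cre and through replicates 3, 4, 1 and 2 in WT. St6gal2 had the same order in T29-1 Cre (82.1, 68.8, 60.5 and 53.4 CPM), but not in WT, where replicate 1 was its highest library. Wfs1, a marker of CA1 pyramidal cells, shared the order in both genotypes (175, 169, 132 and 90.2 CPM in T29-1 Cre). The other CA1 marker, Pou3f1, did not, with replicate 1 highest in T29-1 Cre (134.6 CPM, against 123 CPM in replicate 3) and replicate 4 highest in WT. Of the markers of dentate granule cells, C1ql2 shared the order in T29-1 Cre (135, 103, 98.1 and 82.6 CPM) but not in WT. Prox1 was also highest in replicate 3 and lowest in replicate 4 of T29-1 Cre, with replicates 1 and 2 exchanged, and was lowest of all in WT replicate 4 (96.9 CPM). Grik4 and Bok, the remaining subfield markers looked at, were both highest in T29-1 Cre replicate 4 (85.2 and 98.0 CPM). Their lowest libraries were T29-1 Cre replicate 3 for Grik4 (54.6 CPM) and replicate 1 for Bok (57.3 CPM). These 6 genes were picked from 10 markers of hippocampal principal neurons after the values had been seen. Among the rest of the 10, Zbtb20 and Camk2a did not share the order of St3gal1. Their lowest T29-1 Cre library was replicate 1 (381 and 4264 CPM), against 442 and 4585 CPM in replicate 4. The orders of the remaining markers, Neurod6 and Slc17a7, are not given here. All 10 were counted in every library, 9 of the 10 had a lower and 1 a higher value in T29-1 Cre, and their summed level was 7017 to 7661 CPM in T29-1 Cre and 7268 to 7766 CPM in WT. The part of regional makeup in the St3gal1 values was not tested.

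**Figure D4:**
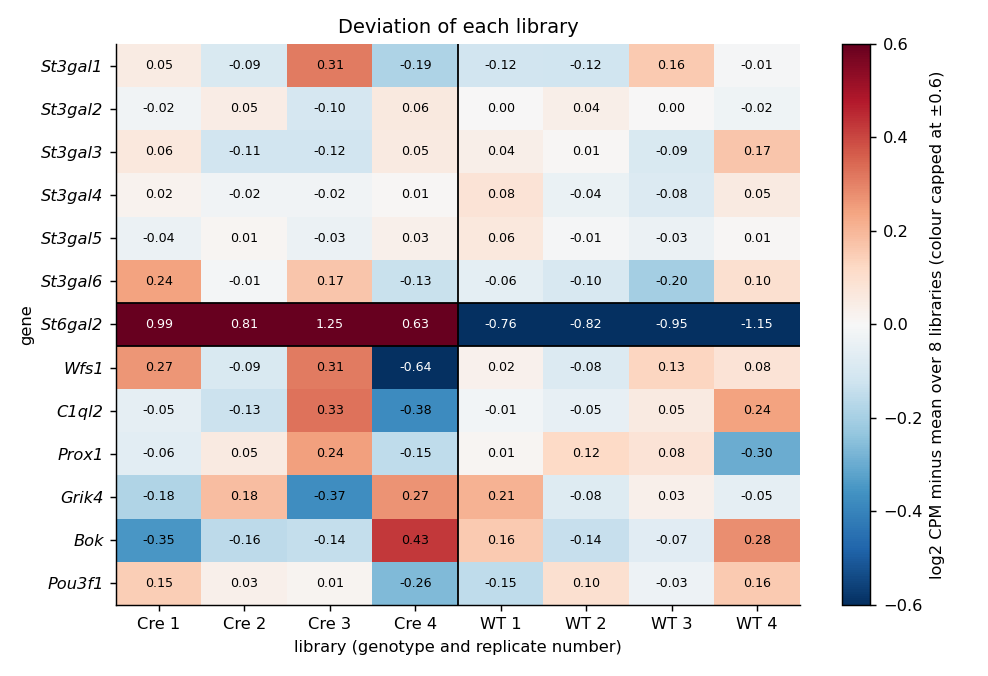
Log2 CPM of each gene minus its mean over the 8 libraries, for the 6 St3gal genes (top), St6gal2 (middle) and 6 markers of hippocampal subfields (bottom), with T29-1 Cre libraries left of WT libraries. St3gal1 is highest in T29-1 Cre replicate 3 (36.8 CPM) and lowest in T29-1 Cre replicate 4 (26.02 CPM), as are Wfs1 and C1ql2. Prox1 shares only the highest of these libraries and has its lowest value in WT replicate 4. Pou3f1 shares only the lowest and has its highest value in WT replicate 4. Grik4 and Bok share neither.

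No relation between 2 members over the 8 libraries passed the adjustment. Among the 15 pairs of members, the relation with the smallest p over the 8 libraries was an inverse one between St3gal1 and St3gal2 (Pearson r = -0.88, exact permutation p = 0.00506, adjusted over the 15 pairs 0.0759). Spearman's rho of this pair was -0.83 (exact permutation p = 0.0154, adjusted 0.231). Neither passed the adjustment. Without T29-1 Cre replicate 3 and WT replicate 3, the libraries farthest from the median of St3gal1, r was -0.86, and without WT replicate 4 it was -0.90. Within genotypes, over only 4 libraries each, it was -0.99 in T29-1 Cre and -0.42 in WT. The next pair, St3gal1 and St3gal5, had r = -0.75 (exact permutation p = 0.0328, adjusted 0.246) and rho = -0.74 (exact permutation p = 0.0458, adjusted 0.344). Its r was -0.66 without the same 2 libraries. The other 13 pairs had permutation p-values of 0.0529 or more. The smallest of these belonged to a positive relation, that of St3gal3 and St3gal4 (r = 0.70, exact permutation p = 0.0529, adjusted 0.247). Its r was 0.97 within T29-1 Cre and 0.77 within WT.

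For each member the tested gene with the most similar pattern was looked up among the 11502 genes that averaged 5 CPM or more, as a description over 8 libraries. These genes were Gucy1b3 for St3gal1 (Pearson r = 0.95), Nrp1 for St3gal2 (0.96), Cuta for St3gal3 (0.97), Tmbim6 for St3gal4 (0.97), Ttyh2 for St3gal5 (0.96) and Dusp26 for St3gal6 (0.95). Gucy1b3 encodes a subunit of soluble guanylate cyclase and Nrp1 a receptor for semaphorins. As each is the highest of 11502 values, no p is given. Without WT replicate 4 the gene ranked first was another one for 5 of the members, with Tmbim6 still first for St3gal4. Ranked by Spearman's rho, Cuta stayed first for St3gal3 and Nrp1 shared the highest rho for St3gal2, while other genes came first for St3gal1 (Cav1), St3gal4 (Fez2), St3gal5 (Katnal2) and St3gal6 (Rab34). The rho of Gucy1b3 with St3gal1 was 0.74.

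The other genes of the sialic acid pathway were read from 9 lists with 52 distinct genes, of which 43 were tested. Besides St6gal2, edgeR called 0 of the other 42, at adjusted p-values of 0.998 or more, and 0 were at an unadjusted p under 0.05. Of the 43, 27 had a higher and 16 a lower value in T29-1 Cre, with a median log2 fold change of 0.03, where all tested genes had a median of -0.00. Of the alpha-2,6 enzymes, St6gal1 was at 21.7 ± 1.08 CPM in T29-1 Cre and 21.1 ± 1.27 CPM in WT (SD, n = 4 each), and its log2 ratio was 0.04.

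All 6 alpha-2,8 sialyltransferases, which extend sialic acid chains, had a higher value in T29-1 Cre without any passing the test (median log2 fold change 0.08). Of these, St8sia3, St8sia4, St8sia5 and St8sia6 had their lowest WT value in replicate 4, the library apart on the first principal component. For St8sia3 that value was 127 CPM, against 151 to 163 CPM in the other WT libraries. How far the shared direction rests on that library is not given here. St8sia6 was at 6.12 ± 1.10 CPM in T29-1 Cre and 5.05 ± 0.806 CPM in WT, and the polysialyltransferase St8sia2 at 4.37 ± 0.51 CPM in T29-1 Cre and 3.65 ± 0.773 CPM in WT (SD, n = 4 each). Of 5 tested alpha-2,6 enzymes that act on N-acetylgalactosamine, 3 had a higher and 2 a lower value (median 0.00), with St6galnac4 at 0.05 and St6galnac6 at -0.05. These genes had 95% intervals that included 0.

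**Figure D5:**
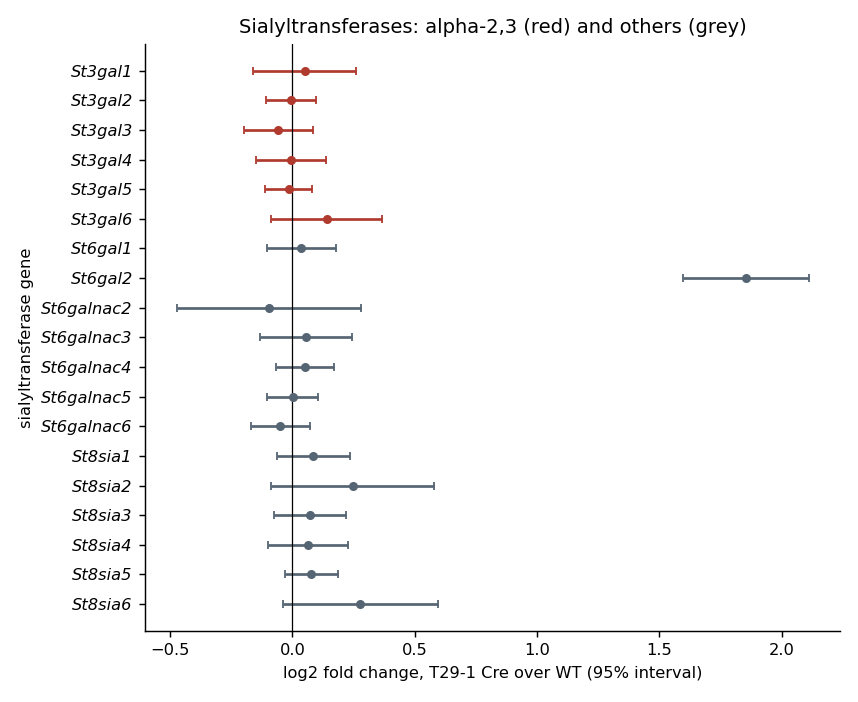
Log2 fold change of T29-1 Cre over WT with its 95% interval for the 6 alpha-2,3 sialyltransferases (red) and the other 13 tested sialyltransferases (grey). Every interval includes 0 except that of St6gal2, at 1.60 to 2.11.

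The donor and acceptor sides of the reaction showed no called gene either. Of 4 tested genes that make and transport the sialic acid donor, 1 had a higher and 3 a lower value (median -0.02), among them the sialic acid synthase Nans at -0.07 (SE 0.0726) and the Golgi transporter Slc35a1 at 0.03 (SE 0.078). Of 4 sialidases, which remove sialic acid, 2 had a higher and 2 a lower value (median -0.05), with the lysosomal Neu1 at -0.10 (SE 0.0591) and Neu2, at 0.258 to 0.726 CPM per library, at -0.36 (SE 0.374). Of 12 genes listed for building the acceptor ends (galactosyltransferases and C1galt1c1), 8 had a higher and 4 a lower value (median 0.03). B4galt5, which makes lactosylceramide, the substrate of St3gal5, was at -0.06 (SE 0.0553) and B3galt5 at 0.06 (SE 0.054). B4galt6, which like B4galt5 is also among the ganglioside genes below, was at 0.05 (SE 0.0554). Its mean was 230 CPM in T29-1 Cre and 223 CPM in WT, against 51.2 and 53.5 CPM for B4galt5.

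Of 10 ganglioside genes outside the family, 7 had a higher and 3 a lower value (median 0.04). All but Ugcg and B4galnt1 were already counted in the lists above, so these are not separate counts. St8sia1, the GD3 synthase that acts on the product of St3gal5, was at 73.1 ± 2.88 CPM in T29-1 Cre and 68.8 ± 7.37 CPM in WT (SD, n = 4 each), and St8sia5 at 45.8 ± 1.79 CPM in T29-1 Cre and 43.4 ± 1.33 CPM in WT (SD, n = 4 each). All 3 tested fucosyltransferases had a higher value (median 0.09), with Fut9, which makes the Lewis x structure in brain, at 0.15 (SE 0.0999) and Fut10 at 0.09 (SE 0.0953). In WT replicate 4, the library apart on the first principal component, Fut9 was at 81.9 CPM, against 111 to 121 CPM in the other WT libraries. Fut11 was at 15.5 CPM there, against 18.9 to 20.3 CPM in the other WT libraries and 18.7 to 20.1 CPM in T29-1 Cre. Of 5 tested lectins that bind sialic acid, 1 had a higher and 4 a lower value (median -0.02). Mag, a lectin of myelin that binds the gangliosides GD1a and GT1b, was at 123 ± 6.46 CPM in T29-1 Cre and 131 ± 16.3 CPM in WT (SD, n = 4 each), and Cd33, a lectin of microglia, was at 0.15 (SE 0.154) on the log2 scale. The 6 oligodendrocyte markers, Mag among them, summed to 3383 to 3714 CPM in T29-1 Cre and 3462 to 4160 CPM in WT, with the highest value in WT replicate 1, and their part in the Mag values was not tested.

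The libraries held 23358289 to 30882631 counts. The marker lists of interneurons, astrocytes, microglia and endothelial cells were counted in full in every library. Those of choroid plexus (4 of 5 in all libraries, Folr1 at 0 in some), ependyma and blood summed to 24.2 to 50.5, 9.33 to 14.2 and 29.9 to 47.6 CPM in T29-1 Cre, and to 21.6 to 26.4, 8.07 to 18.7 and 34.5 to 62.0 CPM in WT.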

How the data were processed

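Total RNA of the hippocampus was enriched for poly(A) RNA and sequenced from directional libraries as paired reads, per the labels' protocols. STAR 2.6.1d, featureCounts, edgeR 3.11 and the build GRCm38 are named in the submitters' processing notes. The sources used here give neither the annotation release nor the strand setting. Unscaled read counts per gene name were deposited by the authors. Per the file headers, the authors' deposited comparison holds a log2 fold change, a signed linear fold change (treated as a score), the mean CPM, also in log2, and an unadjusted p-value per gene.

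The counts were filtered by filterByExpr (minimum count 10, minimum total 15), scaled by TMM and tested for T29-1 Cre against WT with edgeR 4.0.16 in R 4.3.3 (glmQLFit, glmQLFTest, no covariate), with Benjamini-Hochberg adjustment over all 15996 genes and a threshold of 0.05. The SE is the size of the log2 fold change over the square root of F. The script was tested on simulated data. CPM use TMM-scaled library sizes, and log2 CPM a prior count of 2. Exon lengths and positions came from GENCODE M21 (GRCm38), matched by name. DESeq2 1.42.0, limma-voom (limma 3.58.1), other scalings and filters, a replicate block and each library left out were alternatives. Libraries of a genotype differed by more than counting error (chi-square over its degrees of freedom 3.32 to 19.2), and each was counted once. Such a spread does not show that they are separate animals. The members and lists were chosen with earlier results of these data known. The rule for named genes took the 6 members, St6gal1, St6gal2 and, per member, the gene most alike. It also took the called genes of each list, or where there were none the 2 with the lowest p-values. Subfield markers, overlapping genes and B4galt6 were added later, with values known. Cre itself was not analysed here. A planned sign-flip test of neighbours in the order by level is not reported, since the order came from the same libraries.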

Additional observations from a re-analysis of the deposited data

Results flagged for a closer look

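Of 38 groups of 4 libraries (each measure in each genotype), 2 held a library far from the other 3, with 19 measures in all, where chance gives about 1 in 20. Both were the summed level of 4 ependymal markers, outside the St3gal genes. It was 14.2 CPM in T29-1 Cre replicate 4, against 9.33 to 9.89 CPM in the other T29-1 Cre libraries. It was 18.7 CPM in WT replicate 1, against 8.07 to 9.15 CPM in the other WT libraries. No St3gal gene held such a library, nor did the St3gal sum.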

How the results depend on the processing

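None of the 6 St3gal genes was called in any of 16 alternatives, and the smallest adjusted p of any of them was 0.892 (St3gal6 with no filter on low counts). Leaving out each library in turn moved the log2 fold change over -0.059 to 0.12 for St3gal1, -0.028 to 0.025 for St3gal2, -0.10 to -0.01 for St3gal3, -0.036 to 0.019 for St3gal4, -0.028 to 0.0030 for St3gal5 and 0.08 to 0.20 for St3gal6. The sign turned in 1 of these for St3gal1 (without T29-1 Cre replicate 3), in 3 each for St3gal2 and St3gal4 and in 1 for St3gal5 (without WT replicate 1), and in 0 under the other tests, scalings and filters. Over all genes, 2 genes (St6gal2 and Ttr) were called with no filter on low counts and 2 (the same names) with the replicate block, against 1 otherwise, and the cause was not tested. The replicate numbers did not pair the libraries (correlation of the deviations of same-numbered libraries -0.07 to 0.05, and 1 of 4 numbers correlated best with itself). The block changed no call of a member. With the mean coding transcript length, 4 of the 5 neighbour pairs of the order by level per kb were kept, and 5 of 5 in every other alternative run. Depth limits the lowest member, St3gal6, at 188 to 256 counts per library.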
